A study of Mus musculus with 10 samples.

Results

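The Hedgehog pathway was examined in hair follicle stem cells (HFSCs), the resting cells of the bulge that renew the hair. The set was 9 genes fixed by name, all of them present among the 37298 gene entries of the expression table: the ligand gene Shh, the receptor and receptor-like genes Ptch1, Hhip, Gas1 and Boc, the transducer gene Smo, and the transcription factor genes Gli1, Gli2 and Gli3. Of these, 8 had a mean of at least 1 FPKM (fragments per kilobase of transcript and per mapped library size, a length-scaled level) and entered the tests, and Shh did not. RNA was sequenced from 2 libraries labelled Sox9 conditional knockout (cKO) and 2 controls, which the titles call heterozygous and the genotype field calls wild type. All 4 came from back skin of mice of mixed C57BL6 background given RU486 to activate the recombinase CrePGR, and all were sorted as integrin α6-high, CD34+, ScaI- and YFP+. The promoter that drives CrePGR, and the number of animals per library, have no entry in the labels. Replicate 2 of each genotype is female, 80 days old and treated on days 53 to 66, and replicate 1 is male, 75 days old and treated on days 48 to 61. SOX9 binding was mapped by chromatin immunoprecipitation in 2 HFSC libraries (α6-high, CD34+) and in 1 library of interfollicular epidermal (IFE) cells (α6-high, CD34-), all from untreated CD-1 females of 52 to 60 days.

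Hedgehog ligands bind the receptor PTCH1, which otherwise keeps the membrane protein SMO inactive. Freed SMO acts at the primary cilium, where it stops the trimming of GLI2 and GLI3 into repressors and lets GLI2 activate targets. Those targets include Gli1, Ptch1 and Hhip themselves, so that their levels are widely used as readouts of the pathway. GAS1, BOC and CDON help ligand reach PTCH1, whereas HHIP sequesters it. In the follicle SHH drives the growth phase of the hair, and in the resting phase sensory nerves around the upper bulge are a known source of SHH for Gli1-expressing cells there.

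Summed FPKM lay between 555420 and 903766 per library, with the higher sums in replicate 2, and the number of reads per library is unknown. All 8 HFSC markers had a mean of at least 1 FPKM, from Krt15, between 8703 and 10890 FPKM, and Cd34, between 459.5 and 680.0 FPKM, down to Tcf7l1, between 5.41 and 19.5 FPKM. Markers of dermal papilla, Schwann cells and nerve, melanocytes and endothelium were low, and those of several other cell types were not. The 5 hair germ and matrix markers summed to 44.3 to 78.9 FPKM, of which Cdh3 reached 43.4 FPKM. The 3 upper follicle markers summed to 82.0 to 101 FPKM and the 4 immune markers to 31.2 to 77.2 FPKM. Of the immune sum Cd74 alone gave 27.8 to 71.0 FPKM and Cd207 2.72 to 4.95 FPKM. Ptprc and Cd3e were at most 0.390 and 0.894 FPKM. The 3 sebocyte markers summed to 70.6 to 187 FPKM and the 4 markers of differentiated epidermis to 2510 to 7280 FPKM. Of the sebocyte sum Scd1 gave 40.3 to 118.4 FPKM and Fasn 30.3 to 67.9 FPKM, while Mc5r was at most 0.349 FPKM. The 4 dermal papilla markers summed to 0.225 to 0.878 FPKM, and the 4 Schwann cell and nerve markers to 1.91 to 3.32 FPKM. Melanocyte markers (4 genes) summed to 1.08 to 3.2 FPKM and endothelial markers (3 genes) to 0.0906 to 0.249 FPKM. The 6 fibroblast markers summed to 8.64 to 22.5 FPKM, of which Col1a2 alone gave 7.40 to 21.9 FPKM, while Pdgfra was at most 0.136 FPKM. Sox9 itself stood at 71.3 and 80.5 FPKM in cKO-labelled cells, against 82.7 and 46.5 FPKM in the controls. Its FPKM covers the whole gene and did not follow the genotype labels, so that the groups are named by label throughout.

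Promoter windows of 4 members are shown because a SOX9 peak lay at the start-side edge of their listed locus or within 6 kb of it. Each runs from 250 bases before to 50 bases after the RefSeq gene start on build GRCm38.p6, 5′ to 3′ on the gene's strand. Capitals mark matches to ACAATG or ACAAAG, core letters bound by SOX factors, searched on both strands.
Gas1 (chr13:60177486-60177785, minus strand): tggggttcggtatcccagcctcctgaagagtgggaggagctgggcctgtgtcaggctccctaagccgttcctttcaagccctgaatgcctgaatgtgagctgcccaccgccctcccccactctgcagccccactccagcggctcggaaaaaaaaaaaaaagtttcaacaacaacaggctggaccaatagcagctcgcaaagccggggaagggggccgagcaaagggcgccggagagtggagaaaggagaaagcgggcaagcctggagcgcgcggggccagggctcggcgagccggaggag
Smo (chr6:29735247-29735546, plus strand): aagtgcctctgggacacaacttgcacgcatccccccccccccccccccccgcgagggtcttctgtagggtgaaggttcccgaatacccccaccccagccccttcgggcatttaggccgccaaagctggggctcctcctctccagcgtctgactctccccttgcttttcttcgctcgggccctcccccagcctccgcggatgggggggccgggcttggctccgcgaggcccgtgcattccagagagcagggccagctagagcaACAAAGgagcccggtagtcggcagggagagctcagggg
Ptch1 (chr13:63565686-63565985, minus strand): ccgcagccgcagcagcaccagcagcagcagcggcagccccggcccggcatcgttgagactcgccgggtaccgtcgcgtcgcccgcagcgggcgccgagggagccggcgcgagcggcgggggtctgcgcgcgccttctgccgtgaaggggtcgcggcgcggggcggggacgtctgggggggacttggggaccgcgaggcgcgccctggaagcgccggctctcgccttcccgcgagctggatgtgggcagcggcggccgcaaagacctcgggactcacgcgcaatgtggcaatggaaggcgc
Gli2 (chr1:119053570-119053869, minus strand): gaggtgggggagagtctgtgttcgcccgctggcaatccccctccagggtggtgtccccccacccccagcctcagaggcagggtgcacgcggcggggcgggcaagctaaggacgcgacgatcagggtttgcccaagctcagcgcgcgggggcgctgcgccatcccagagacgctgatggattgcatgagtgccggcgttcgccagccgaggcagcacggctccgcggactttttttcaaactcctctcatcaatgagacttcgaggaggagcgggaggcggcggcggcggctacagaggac
RefSeq windows were matched for 6 of the 9 members, the others being Shh, Gli1 and Boc. Smo was the member with a match, 1 copy of ACAAAG, in capitals above, and 28.6% of 32851 promoter windows hold either word. The GLI-binding word GACCACCCA was found in 0.253% of all windows and in none of the 6. No match says only that these letters are not in these windows. The peaks are on build mm9, so that bases of these windows were not placed inside or outside a peak. Distances from the edge of a start, below, are from the edge of the listed mm9 locus. That edge was not placed against the RefSeq start and may differ from it.

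The ligand gene was listed at 0 and the receptor side of the pathway was present. Shh was listed at 0 FPKM in both libraries labelled cKO and in both controls. Its locus in the table (ENSMUSG00000002633; mm9 chromosome 5, 28783354 to 29260535) spans 477 kb and is shared with 3 other entries, of which Gm10290 stood at 4.28 and 8.22 FPKM in cKO-labelled cells and at 3.91 and 6.19 FPKM in the controls. The other ligand genes, Ihh and Dhh, were at most 0.0840 and 0.0675 FPKM in any library. In such bulk samples fewer cells of a type and less RNA per cell cannot be told apart, for these and all other genes here.

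The coreceptor genes Gas1 and Boc were the most abundant members, and the decoy receptor gene Hhip was the lowest of those listed above 0. Gas1, which encodes a membrane-anchored coreceptor (ENSMUSG00000052957; chromosome 13, 60275765 to 60278726), stood at 161.0 and 114.3 FPKM in cKO-labelled cells and at 182.1 and 139.9 FPKM in the controls, and its control mean exceeded that of 95.3% of the 14455 genes tested. Boc, a coreceptor of the immunoglobulin superfamily (ENSMUSG00000022687; chromosome 16, 44485157 to 44559010), stood at 39.0 and 49.9 FPKM in cKO-labelled cells and at 68.5 and 61.3 FPKM in the controls. Both of its cKO-labelled values lay under both control values. Ptch1, the receptor and target (ENSMUSG00000021466; chromosome 13, 63610260 to 63674474), stood at 17.1 and 9.08 FPKM in cKO-labelled cells and at 21.6 and 10.35 FPKM in the controls. Hhip, the decoy receptor and target (ENSMUSG00000064325; chromosome 8, 82490013 to 82581905), stood at 1.70 and 0.786 FPKM in cKO-labelled cells and at 1.44 and 1.02 FPKM in the controls, above only 2.9% of genes tested by its control mean. For Ptch1 and Hhip the genotypes overlapped and both replicate 1 libraries were the higher ones.

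The transducer and the transcription factors lay in the middle. Smo (ENSMUSG00000001761; chromosome 6, 29685693 to 29711365) stood at 35.0 and 33.9 FPKM in cKO-labelled cells and 41.1 and 33.5 FPKM in the controls. Gli1, the activator that is itself a target (ENSMUSG00000025407; chromosome 10, 126759171 to 126778645), stood at 9.82 and 11.67 FPKM in cKO-labelled cells and at 13.2 and 11.73 FPKM in the controls. The cKO-labelled values of Gli1 were both the lower ones, but in replicate 2 by only 0.01 on the log2(FPKM + 1) scale. Gli2, the main activator (ENSMUSG00000048402; chromosome 1, 120730708 to 120950196), stood at 16.6 and 6.75 FPKM in cKO-labelled cells and at 22.2 and 7.62 FPKM in the controls. Gli3, known chiefly as a repressor (ENSMUSG00000021318; chromosome 13, 15555067 to 15821859), stood at 9.10 and 3.63 FPKM in cKO-labelled cells and at 10.9 and 3.30 FPKM in the controls. Gli2 and Gli3 separated by replicate and not by genotype.

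By mean FPKM over the 4 libraries the order was Gas1, Boc, Smo, Ptch1, Gli2, Gli1, Gli3 and Hhip, with Shh last. Gas1 lay above Boc in all 4 libraries without overlap, Smo likewise above Ptch1, and Gli3 above Hhip. Boc lay above Smo in 4 of 4 libraries although their ranges overlapped. Ptch1, Gli2 and Gli1 were not separated: Ptch1 exceeded Gli2 in 3 of 4 libraries, and Gli2 exceeded Gli1 in 2 of 4, both of them replicate 1 libraries.

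**Figure D1:**
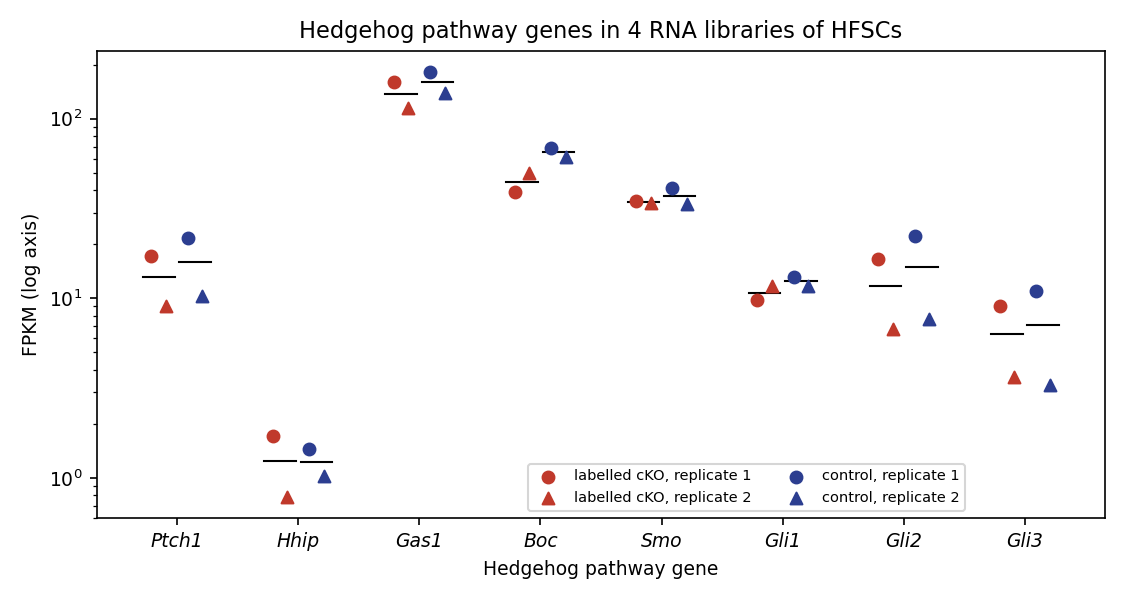
FPKM (log axis) of the 8 Hedgehog genes listed above 0 in each RNA library, with libraries labelled cKO in red to the left and controls in blue to the right. Circles are replicate 1 and triangles replicate 2, and each black bar is the mean of 2 libraries. Gas1 is highest at 114.3 to 182.1 FPKM and Hhip lowest at 0.786 to 1.70 FPKM, and triangles lie well under circles for Ptch1, Gli2 and Gli3.

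No member was called between the genotypes. Fitting genotype alone, limma gave calls for 0 of 8 members tested and 0 of 14455 genes (0.0%), 93 of the genes having p under 0.05 before adjustment. With the replicate number as a block it called 0 of 8 members and 41 genes (0.284%, being 0.104% higher and 0.18% lower). The change nearest to a call was that of Boc, lower by a log2 change of -0.79 in the replicate 1 pair and -0.29 in the replicate 2 pair, with a mean of -0.54 ± 0.16 (moderated SE, limma with the replicate block, unadjusted p = 0.0102, adjusted p = 0.343; adjusted p = 1.0 without the block). The other mean log2 changes were -0.28 ± 0.16 for Gli2, -0.25 ± 0.15 for Ptch1, -0.23 ± 0.12 for Gas1, -0.20 ± 0.17 for Gli1, -0.10 ± 0.14 for Smo, -0.07 ± 0.19 for Gli3 and -0.01 ± 0.27 for Hhip (blocked SEs). The median over the 8 members was -0.22, beside -0.01 over all genes tested. The value of Hhip turned to 0.0004 with a pseudocount of 5 and to 0.05 with quantile scaling. Lower values in the library labelled cKO of both pairs were seen for 5 of 8 members (Ptch1, Gas1, Boc, Gli1 and Gli2), as for 29.6% of all genes tested, and higher values in both for 0 of 8, beside 28.4%. Groups that did not overlap were seen for 2 of 8 members, Boc and Gli1, both lower, as for 8.42% of all genes tested (5.47% were higher without overlap). The HFSC marker Lhx2 was called lower in cKO-labelled cells in the fit with the block (-1.40, limma, adjusted p = 0.0273). That call ended without the block, and in the blocked fits with no filter, equal library totals, no mean trend or no span trend, where no gene was called. With 2 libraries a genotype, an exact permutation test of a single gene cannot go below p = 0.333. All p-values rest on the spread among 4 libraries, which may be technical. With no block, Ptch1, Gli2 and Gli3 turned to 0.25, 0.44 and 0.67 if the replicate 1 control was left out, and to 0.18, 0.31 and 0.50 if the second cKO-labelled library was, while leaving out the first cKO-labelled library gave -0.37 for Boc.

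**Figure D2:**
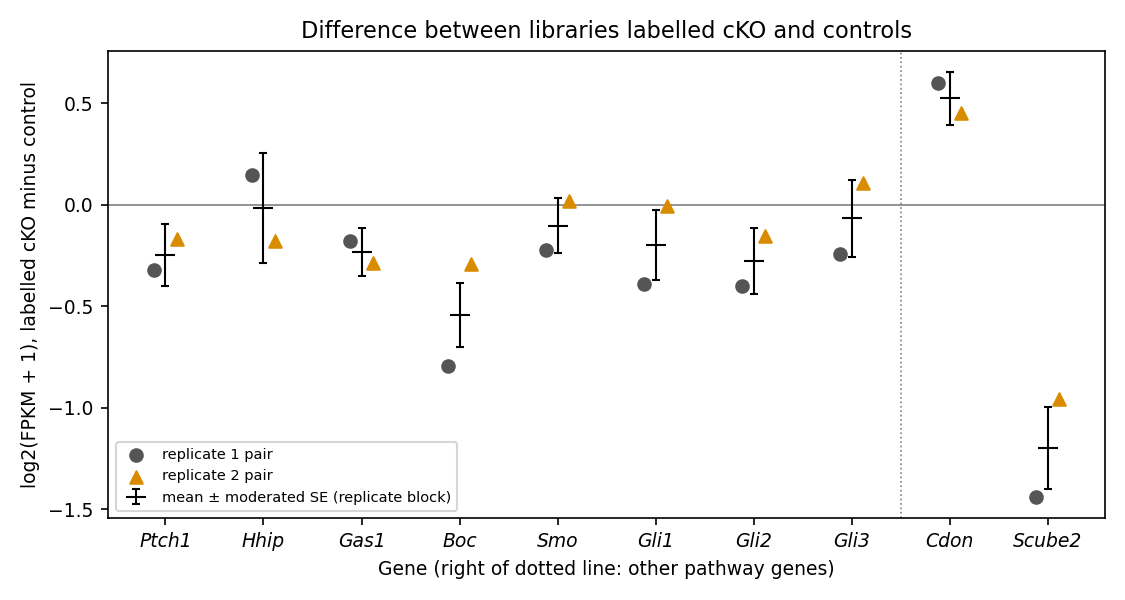
Difference in log2(FPKM + 1), labelled cKO minus control, for the 8 members and, right of the dotted line, Cdon and Scube2. Circles are the replicate 1 pair and triangles the replicate 2 pair, and bars are the mean ± moderated SE of limma with the replicate block. Boc is the member farthest below 0, Cdon lies above 0 in both pairs (0.60 and 0.45), and Scube2 lies below in both (-1.44 and -0.96).

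Among 34 further pathway genes, 33 were in the table and 24 passed the filter on low values. None of the 24 was called between genotypes by limma, without or with the block, 0 and 2 having p under 0.05 before adjustment. Cdon, the third coreceptor, stood at 82.6 and 27.2 FPKM in cKO-labelled cells, against 54.2 and 19.6 FPKM in the controls, a mean log2 change of 0.53 ± 0.13 (limma with the replicate block, adjusted p = 0.271). Its values ran the other way from those of Gas1 and Boc in both pairs. In the fit with genotype alone, Cdon turned to -0.26 if the first cKO-labelled library was left out and to -0.18 if the second control was. Scube2, a secreted protein that helps release lipid-modified SHH from the cells that make it, stood at 5.59 and 2.18 FPKM in cKO-labelled cells, against 16.9 and 5.17 FPKM in the controls. Its mean log2 change of -1.20 ± 0.20 was the one nearest to the threshold in the list (blocked limma fit, adjusted p = 0.0941, and 0.0733 to 0.742 over the blocked fits). In the fit with genotype alone it was -0.43 if the first control was left out and -0.67 if the second cKO-labelled library was. Scube1 and Scube3 were at most 0.0413 and 0.248 FPKM, Disp2, a ligand-release gene, was listed at 0 throughout, and Disp1 was not matched in the table. Hhat, which encodes the acyltransferase for the ligand, stood at 2.73 and 3.23 FPKM in cKO-labelled cells and at 2.52 and 2.00 FPKM in the controls. Sufu, the cytoplasmic inhibitor of GLI proteins, stood at 10.2 and 6.42 FPKM in cKO-labelled cells and at 11.9 and 6.85 FPKM in the controls.

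Genes known as Hedgehog targets in various tissues gave no common direction between genotypes. Of 11 such genes, Gli1, Ptch1 and Hhip among them, 6 passed the filter, limma called 0 without or with the block (0 with p under 0.05 before adjustment in either fit), and their median log2 change was 0.01. Ccnd1, a G1 cyclin, stood at 29.2 and 28.0 FPKM in cKO-labelled cells and at 36.2 and 17.0 FPKM in the controls, and Ccnd2, another, at 17.5 and 8.06 FPKM in cKO-labelled cells and at 16.6 and 8.12 FPKM in the controls. Bcl2, which blocks apoptosis, stood at 5.62 and 3.18 FPKM in cKO-labelled cells and at 6.35 and 2.35 FPKM in the controls. Mycn, under the filter, stood at 0.225 and 0.387 FPKM in cKO-labelled cells and at 0.407 and 1.12 FPKM in the controls. Snai1, also under it, ran the other way, at 0.208 and 0.238 FPKM in cKO-labelled cells and at 0.141 and 0 FPKM in the controls. Foxe1 was at most 0.188 FPKM, and Foxf1 (listed as Foxf1a) was at 0 in all 4 libraries.

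More genes were called between replicates than between genotypes. Ptch1, Gli2, Gli3 and Gas1 were lower in replicate 2 than in replicate 1, whereas no call was made for Boc, Smo, Gli1 and Hhip. Limma with genotype as a covariate called these 4 of 8 members lower and 0 higher, where 24.1% of all genes tested (3490) were called lower and 25.8% (3731) higher. Gli2 stood at 6.75 and 7.62 FPKM in replicate 2 and at 16.6 and 22.2 FPKM in replicate 1, each pair in the order labelled cKO and control (log2 difference -1.31 ± 0.16, limma, adjusted p = 0.000886). Gli3 stood at 3.63 and 3.30 FPKM in replicate 2 and at 9.10 and 10.9 FPKM in replicate 1 (-1.30 ± 0.19, limma, adjusted p = 0.0018). Ptch1 averaged 9.72 FPKM in replicate 2 and 19.4 FPKM in replicate 1 (-0.92 ± 0.15, limma, adjusted p = 0.00282). Gas1 averaged 127.1 FPKM in replicate 2 and 171.6 FPKM in replicate 1 (-0.43 ± 0.12, limma, adjusted p = 0.0215; -0.997 with equal library totals and -1.07 with quantile scaling). Replicates did not overlap for 6 of 8 members, all lower in replicate 2 (37.5% of all genes tested were lower in this way and 37.9% higher). Gli1 gave 0.04 ± 0.17 (limma, adjusted p = 0.875), Boc 0.09 ± 0.16 (0.640), Smo -0.17 ± 0.14 (0.339) and Hhip -0.43 ± 0.27 (0.219). Scaling each library to the same total moved the median of all genes by -0.49, and Gli1 and Boc then stood at -0.49 and -0.46, close to that median, while Gli2 and Gli3 stood at -1.82 and -1.78. On that scale 6951 genes were called lower and 1604 higher, and 7 of 8 members lower, Boc, Gli1 and Smo (-0.72) being added to the 4. Sex, age, treatment days and library cannot be told apart in this comparison. If either replicate 1 library was left out, the cKO-labelled one or the control, the 4 member calls ended (limma, adjusted p from 0.0623 to 0.201 and from 0.0907 to 0.369), and of all genes 0 and 1 were called. The call of Gas1 also ended without the second cKO-labelled library (limma, adjusted p = 0.253).

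Locus span moved with the replicate difference across the whole table. Genes with a locus under 10 kb had a median log2 difference of 0.45 (replicate 2 minus replicate 1, n = 4036), those of 10 to 50 kb -0.05 (n = 5780), those of 50 to 100 kb -0.37 (n = 2196) and those of at least 100 kb -0.37 (n = 2443). Gli2 (219 kb) and Gli3 (267 kb) belong to the longest class, of which 40.7% was called lower. With a trend on locus span removed, an alternative added after the data were seen, the differences were -0.96 for Gli2, -0.98 for Gli3 and -0.60 for Ptch1, still past the threshold (limma, adjusted p between 0.00723 and 0.0223). Gas1, with a locus of 2.96 kb, ran against its class, in which 8.05% was called lower and 46.8% higher, and its difference without the span trend was -0.85. Boc (73.9 kb) lay above the median of its own class, at 0.44 without the span trend (limma, adjusted p = 0.059). Of 8 HFSC markers 5 were called lower in replicate 2 (limma, Nfatc1 -1.78, Lgr5 -1.57, Tcf7l1 -1.34, Itga6 -1.24 and Lhx2 -0.63) and 0 higher, while Krt15 (0.14) and Cd34 (0.04) were not called. Nfatc1, Lgr5, Tcf7l1 and Itga6 have loci of 107 to 163 kb, in the class of which 40.7% was called lower. The loci of Lhx2 (30.5 kb), Krt15 (4.19 kb) and Cd34 (99.1 kb) belong to classes of which 22.0%, 8.05% and 40.9% was called lower. The 4 markers of differentiated epidermis summed to 4660 and 7280 FPKM in replicate 2 and to 2510 and 2640 FPKM in replicate 1. Of these Lor (2.89), Krt10 (0.87) and Ivl (0.83) were called higher in replicate 2 and Krt1 (-0.24, limma, adjusted p = 0.148) was not called. Their loci span 2.81 to 5.36 kb, in the class of which 46.8% was called higher. Values without the span trend are not given here for these HFSC and epidermal markers. The 3 sebocyte markers summed to 70.6 and 75.8 FPKM in replicate 2 and to 187 and 149 FPKM in replicate 1. Scd1 and Fasn made up nearly all of these sums. Mc5r was listed at 0 in both replicate 2 libraries and at 0.349 and 0.331 FPKM in replicate 1. The part of these cell types in the difference of the members was not tested.

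Of the 24 other pathway genes tested, limma called 14 lower and 1 higher in replicate 2, beside 24.1% of all genes tested lower and 25.8% higher. Cdon averaged 23.4 FPKM in replicate 2 and 68.4 FPKM in replicate 1 (log2 difference -1.49 ± 0.13, limma, adjusted p = 0.000333). Scube2 (-1.29) and the GLI kinase gene Gsk3b (-1.58) were among the lower ones, with the kinase gene Prkacb (-0.89), the GLI inhibitor Sufu (-0.66), the degradation adaptors Spop (-0.49) and Btrc (-0.70) and the ciliary receptor Gpr161 (-1.03). Genes of cilium transport made up the rest, namely Kif3a, Ift88, Ift172, Arl13b, Tulp3 and Dync2h1, between -1.34 and -0.54. Arrb2, a beta-arrestin linked to SMO trafficking, was the higher one (0.67), and its call ended with equal library totals (0.14, limma, adjusted p = 0.397). Scube2 was -2.01 without the first cKO-labelled library, -0.57 without the first control and -0.82 without the second cKO-labelled library, and its call ended in each case (limma, adjusted p = 0.0678, 0.431 and 0.261). Spop was -0.28 without the second cKO-labelled library (limma, adjusted p = 0.229). Without the span trend 7 of these 15 calls ended, those of Sufu, Spop, Btrc, Arrb2, Kif3a, Ift88 and Tulp3. Among the targets Ccnd2 (-0.99, limma, adjusted p = 0.00227) and Bcl2 (-0.90, limma, adjusted p = 0.0127) were lower together with Ptch1, and the call of Bcl2 ended without the span trend (adjusted p = 0.0843).

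Genes whose pattern over the 4 libraries was most like that of a pathway readout were found by the distance of centred log2(FPKM + 1) values. For Gli1 they were C330006K01Rik (distance 0.02), A830007P12Rik (0.04) and Prkar2b (0.04). For Ptch1 they were Rsbn1l (0.03), Lrp1 (0.04) and Pan2 (0.06). A distance under 0.1 was shared by 44 genes for Gli1 and 33 genes for Ptch1.

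SOX9 peaks lay near most members, about as often as near other expressed genes. A peak of either HFSC list lay within 50 kb of 6 of 9 member loci (Smo, Boc, Gli1, Gli2, Gas1 and Hhip), where 42.8% of all gene loci and 60.8% of loci of genes tested had one. HFSC list 1 gave 6 of 9, beside 38.2% of all loci and 54.1% of tested ones. HFSC list 2 gave 3 of 9, beside 25.5% and 38.6%, and the IFE list 6 of 9, beside 36.5% and 53.8%. Both HFSC lists had a common peak near 3 members (Gli1, Gli2 and Gas1), beside 17.6% of all loci and 26.5% of tested ones. The lists hold 8181, 2989 and 5209 peaks and no heights, so that a peak missing from the shorter list does not show less binding. Longer loci have wider windows, and 69.6% of tested loci of at least 100 kb had a peak of either HFSC list, against 63.0% of those of 10 to 50 kb.

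Gas1 and Gli2 carried peaks common to all 3 lists inside or at the edge of their loci, as did 8.87% of loci of genes tested. At Gas1 the peaks of HFSC list 1 (chromosome 13, 60278572 to 60279248), HFSC list 2 (60278699 to 60279356) and the IFE list (60277938 to 60278922) all crossed the upper edge of the locus. RefSeq places Gas1 on the minus strand, so that this edge is the side where its transcript starts, the side of the promoter printed above. Counted inward from that edge, their centres lay at -184 and -301 bp in the HFSC lists, outside the locus, and at 296 bp in the IFE list, inside it. At Gli2, also on the minus strand, 1 common peak lay 5.83, 5.64 and 5.54 kb inside the edge of the start (HFSC list 1: chromosome 1, 120943861 to 120944869). A second lay about 180.0 kb inside it (HFSC list 1: 120769925 to 120770630). HFSC list 1 had 3 more peaks near Gli2 and the IFE list 1 more, none of them shared.

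At Gli1 the common peak lay outside the gene. It was found 32012, 32476 and 32613 bp below the locus in HFSC list 1, HFSC list 2 and the IFE list, at the locus of Mbd6, and in HFSC list 1 its peak reached into the loci of Ddit3 and Mars too. HFSC list 2 had 2 more peaks on the same side, 31.3 and 10.2 kb away, within the loci of Ddit3 and Mars. All peaks counted for Gli1 thus lay in loci of other genes.

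No peak common to HFSC and IFE lists was found within 50 kb of Boc, Hhip, Ptch1, Smo, Shh or Gli3. Boc had 4 peaks of HFSC list 1 inside its locus, between 44493960 and 44551456, and 0 of HFSC list 2 or the IFE list within 50 kb. Overlap with at least 1 peak of HFSC list 1 was seen for 26.4% of loci of genes tested, of any span. Hhip had 1 peak, of HFSC list 1, 65.4 kb inside the edge of its start. Ptch1 had 2 peaks of the IFE list inside its listed locus, 5.07 and 9.90 kb from the start-side edge of that locus (63669037 to 63669777 and 63664353 to 63664789). It had none of either HFSC list within 50 kb. In a window of 100 kb, HFSC list 2 also had a peak near Ptch1 and near Boc, and HFSC list 1 near Gli3. Smo had an IFE peak whose centre lay 397 bp inside the edge of its start (29685730 to 29686450) and another 5.41 kb outside it, while its 1 HFSC peak lay 10.6 kb beyond the other end, within the locus of Ahcyl2. Overlap with an IFE peak was seen for 28.9% of loci of genes tested. Shh had 1 IFE peak, 173.6 kb from the lower edge of its shared 477 kb locus, and Gli3 had none of any list within 50 kb. With 1 IFE library, these differences in position between HFSC and IFE lists could not be tested.

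**Figure D3:**
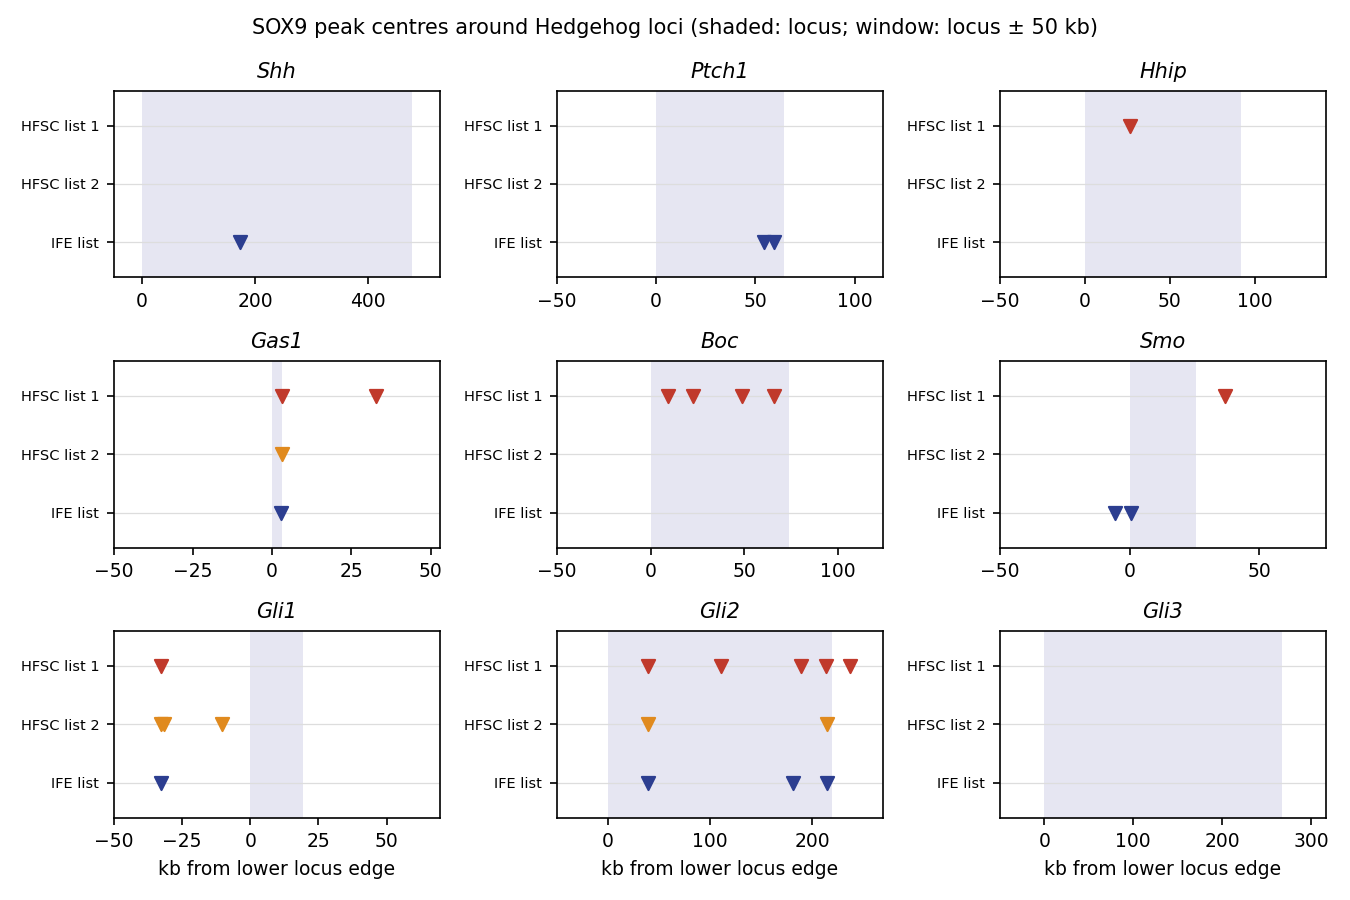
Centres of SOX9 peaks (triangles) in HFSC list 1, HFSC list 2 and the IFE list around each of the 9 members, in kb from the lower edge of the locus, which is shaded. Each panel covers the locus and 50 kb on both sides. Triangles line up in all 3 rows at Gas1, at 2 places in Gli2 and below Gli1, while the 4 peaks in Boc are in HFSC list 1 and the 2 in Ptch1 in the IFE list.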

How the data were processed

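Expression was deposited by the authors as FPKM in 1 table with a column per RNA library, per the file headers. Peaks were deposited as 1 list of positions per ChIP library. Bowtie, TopHat, TopHat2, Cufflinks 1.0.3 and build mm9 appear, without roles, per the submitters' processing notes. Strand setting, peak caller and its threshold: not given in the sources used here. Input libraries were not analysed here. No unit of 1 read could be read off low FPKM values (at most 2.66% of ratios between libraries fell in 1 bin of 0.02 log2), so depth is unknown.

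Tests used limma 3.58.1 (R 4.3.3) on log2(FPKM + 1) (mean trend, two-sided, Benjamini-Hochberg over 14455 genes of mean FPKM at least 1, threshold 0.05). This scale understates changes of low genes, and SEs are moderated across genes. The fit was tested on simulated data. Genotype alone was the main term and the replicate block an alternative. The numbers pair the libraries by sex, age and treatment days in the labels, and their deviations from the genotype means had a correlation of 0.812 over genes. Positions are 1-based on mm9. Loci are those of the table and give no exons. Members, lists and named genes (all members, listed ligand, release and inhibitor genes, targets and called pathway genes) were chosen with earlier results of these data known.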

Additional observations from a re-analysis of the deposited data

Results flagged for a closer look

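For 3 members the difference between genotypes had opposite signs in the replicate 2 and replicate 1 pairs, with 1 difference per pair, so that the disagreement was not tested. Gli3 gave a log2(FPKM + 1) difference, labelled cKO minus control, of 0.11 in the replicate 2 pair and -0.24 in the replicate 1 pair. Smo gave 0.0183 and -0.22 in the same order, and Hhip gave -0.18 and 0.15.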

How the results depend on the processing

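No member was called between genotypes under any alternative run. Genes called numbered 0 without the block, 41 with it, 33, 78 and 3 with it and a pseudocount of 0.1, a pseudocount of 5 or quantile scaling, and 0 with it and no filter, equal library totals, no mean trend or no span trend. The block changed no member call. Leaving out 1 library gave 2 to 41 called genes, with a genotype then resting on 1 library assumed to vary like the others, and a median member change of -0.52 to 0.0949, where the value over all libraries was -0.22. With equal totals that median was -0.35, with or without the block. Hhip turned to 0.0004 with a pseudocount of 5, 0.0482 with quantile scaling (both also with the block) and 0.0433 with the block and no span trend. Over libraries left out in turn the change ran from -0.74 to 0.25 for Ptch1, -0.31 to 0.28 for Hhip, -0.48 to 0.0129 for Gas1, -0.25 to 0.0415 for Smo, -0.99 to 0.44 for Gli2, -0.80 to 0.67 for Gli3, -0.26 to 1.31 for Cdon and -0.13 to 0.69 for Sox9, whereas Boc, Gli1 and Scube2 kept their sign. The fits with 1 library left out had no block, so that the difference between replicates entered their change between genotypes. Within the same-numbered pairs, Ptch1 (-0.32 and -0.17), Gas1 (-0.18 and -0.29) and Gli2 (-0.40 and -0.15) were lower in both. Cdon was higher in both, whereas Hhip, Smo, Gli3 and Sox9 differed in sign between pairs. Other sources of these turns were not tested.

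Between replicates, 7221 genes were called, 3293 with no filter and 0 to 6296 with 1 library left out, and 4 members, 7 with equal totals and 0 to 4 with 1 library left out. The median member difference of -0.43 became -0.59 with a pseudocount of 0.1, -0.87 with equal totals, -0.60 with quantile scaling, -0.29 with a pseudocount of 5, -0.35 without the span trend and -0.32 to -0.55 with 1 library left out. The call of Scube2 ended with no genotype term (limma, adjusted p = 0.0898) and no filter (0.0568). With no filter those of Sufu, Spop, Btrc, Gpr161, Arrb2, Kif3a, Ift88, Tulp3, Dync2h1 and Bcl2 ended too (limma, adjusted p from 0.0541 to 0.126). Those of Cdon, Prkacb, Gsk3b, Ift172, Arl13b and Ccnd2 held with no filter. Spop was also lost with no genotype term (limma, adjusted p = 0.0749), and Btrc and Ift88 with quantile scaling (0.055 and 0.0562). Boc turned to -0.46 with equal totals, to -0.20 with quantile scaling and ran from -0.30 to 0.49 with 1 library left out. Gli1 turned to -0.49 with equal totals and ran from -0.16 to 0.23. The call of Gas1 ended with no genotype term (limma, adjusted p = 0.0856), no filter (0.0712), no mean trend (0.0676) and without the replicate 2 library labelled cKO (0.253). The fits with the span trend or mean trend removed, and those joining the block with another choice, were added after seeing the data.

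Peaks in both HFSC lists lay near 3 members, also with the stricter overlap of the shorter peak, and a single list gave 3 to 6. Either HFSC list gave 4 members within 10 kb, 4 with overlap, 8 within 100 kb and 6 around midpoints, and the IFE list 5, 5, 6 and 4 in that order. Peaks in both HFSC lists lay near 2 members within 10 kb and 4 within 100 kb. Loci with a peak of either HFSC list numbered 15955 of 37298, 9858 within 10 kb, 7410 with overlap, 6546 in both lists, 6525 with the stricter overlap and 9528 to 14235 with 1 list. For the IFE list they numbered 13624, 8382 within 10 kb and 6402 with overlap. No peak score was in the lists, so no stricter peak threshold was run.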
